A study of Mus musculus with 4 samples.

Results

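The genes described here are 36 genes of the endoplasmic reticulum (ER) stress response and the integrated stress response, chosen by symbol from the 24940 genes of an RNA sequencing table of mouse pancreatic islets. All 36 were found and all 36 passed the filter on low values that left 13531 genes for testing. Islets came from male mice aged 3 to 4 months on a low-fat chow diet. Control replicates 1 and 2 were from non-transgenic mice and knockdown replicates 3 and 4 from mice with Tafazzin, the mitochondrial cardiolipin transacylase, knocked down. Each library pooled about 300 islets from 2 to 3 mice. How the knockdown was driven is not given in the sources used here, and because the controls carried no transgene, the transgene and the loss of Tafazzin cannot be told apart.

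The unfolded protein response is the reaction of a cell to misfolded protein in the ER, the compartment where secreted proteins such as insulin are folded. The sensors IRE1, PERK and ATF6 act through the transcription factors XBP1, ATF4 and cleaved ATF6, which raise chaperones, disulfide isomerases and the machinery that exports misfolded protein for degradation. PERK is also a kinase of the translation factor eIF2, so it feeds the integrated stress response, which other eIF2 kinases can start from amino acid shortage, viral RNA or mitochondrial damage. Beta cells make so much proinsulin that they depend on this system, and loss of PERK or of wolframin causes diabetes in humans.

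Part of the set shares a DNA element known to carry this response. Promoter sequences of 300 bases, from RefSeq on GRCm38.p6, were matched for 31 of the 36 genes. Those of Atf6, Derl1, Hyou1, Manf and Ppp1r15b were not matched. The ER stress response element (ERSE) was searched on both strands as the letters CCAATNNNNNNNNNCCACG. It was present in the promoters of 9 of 31 matched members (29.0%) and of 0.137% of the 27025 genes in the promoter table. That share is 37 genes and includes these 9 members. The element is known from genes of this response, and the members were chosen as such genes. The contrast between the shares was therefore largely set in advance and was not tested. The 10 matches in the members are given below. Each is written in the orientation of the motif, with the conserved blocks in capitals and the spacer in lower case, and Hsp90b1 held a pair.
Hspa5: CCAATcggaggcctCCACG
Hsp90b1 (distal): CCAATcgcaaggagCCACG
Hsp90b1 (proximal): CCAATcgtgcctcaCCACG
Calr: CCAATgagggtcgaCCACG
Canx: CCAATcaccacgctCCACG
Pdia6: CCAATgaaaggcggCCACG
Dnajc3: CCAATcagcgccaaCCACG
Creld2: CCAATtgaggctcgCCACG
Derl3: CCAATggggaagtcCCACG
Syvn1: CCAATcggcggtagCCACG
The match lay on the strand of the gene in Hspa5, Canx, Pdia6, Dnajc3 and Syvn1 and on the opposite strand in Calr, Creld2 and Derl3, whereas Hsp90b1 had a match of each kind. Counted to the first base of the match, they began between 44 bases upstream of the annotated start in Syvn1 and 212 bases upstream in Hsp90b1. The second form of the element, ERSE-II (ATTGG, any base, CCACG), was found in 2 matched members, Dnajb11 and Herpud1, and in 0.0444% of all genes. The XBP1-type element UPRE (TGACGTGG) was found in 0 of the 31 and in 0.714% of all genes. A core of the amino acid response element that ATF4 binds (AARE, TTGCATCA) was found in Chac1 and Herpud1 and in 1.03% of all genes. No 2 of the matches overlapped each other. A match is a run of letters and not a shown binding site.

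The promoters of 4 members that hold matches are shown whole: the chaperone Hspa5, the degradation factors Derl3 and Herpud1, and the ATF4 target Chac1. Capitals mark the whole match, spacer included: ERSE in the promoters of Hspa5 and Derl3 (there on the opposite strand), AARE followed by ERSE-II in that of Herpud1, and AARE in that of Chac1. They span chr2:34771840-34772139 (plus strand), chr10:75893148-75893447 (plus strand), chr8:94386179-94386478 (plus strand) and chr2:119350992-119351291 (plus strand).
Hspa5: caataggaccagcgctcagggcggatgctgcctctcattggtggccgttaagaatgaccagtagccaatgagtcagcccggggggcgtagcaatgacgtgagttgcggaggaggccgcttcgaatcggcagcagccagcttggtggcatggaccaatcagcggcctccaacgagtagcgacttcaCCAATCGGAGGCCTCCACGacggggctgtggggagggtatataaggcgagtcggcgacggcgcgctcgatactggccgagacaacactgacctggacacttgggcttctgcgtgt
Derl3: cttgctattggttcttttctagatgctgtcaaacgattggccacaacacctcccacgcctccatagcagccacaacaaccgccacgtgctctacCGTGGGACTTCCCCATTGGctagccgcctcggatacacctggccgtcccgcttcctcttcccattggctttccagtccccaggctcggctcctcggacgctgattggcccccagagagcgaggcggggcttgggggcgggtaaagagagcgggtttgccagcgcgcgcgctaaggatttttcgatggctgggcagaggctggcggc
Herpud1: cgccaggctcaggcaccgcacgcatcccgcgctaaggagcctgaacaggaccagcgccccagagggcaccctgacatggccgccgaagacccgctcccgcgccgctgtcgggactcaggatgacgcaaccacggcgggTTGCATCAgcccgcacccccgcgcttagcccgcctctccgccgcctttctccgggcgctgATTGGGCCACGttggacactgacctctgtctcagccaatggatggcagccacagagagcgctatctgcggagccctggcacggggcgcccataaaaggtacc
Chac1: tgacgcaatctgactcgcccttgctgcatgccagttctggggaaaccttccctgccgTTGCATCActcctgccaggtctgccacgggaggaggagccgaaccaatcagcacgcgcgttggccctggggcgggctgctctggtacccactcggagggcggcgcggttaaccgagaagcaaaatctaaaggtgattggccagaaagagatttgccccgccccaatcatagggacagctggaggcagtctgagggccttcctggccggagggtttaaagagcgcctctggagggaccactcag

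**Figure D1:**
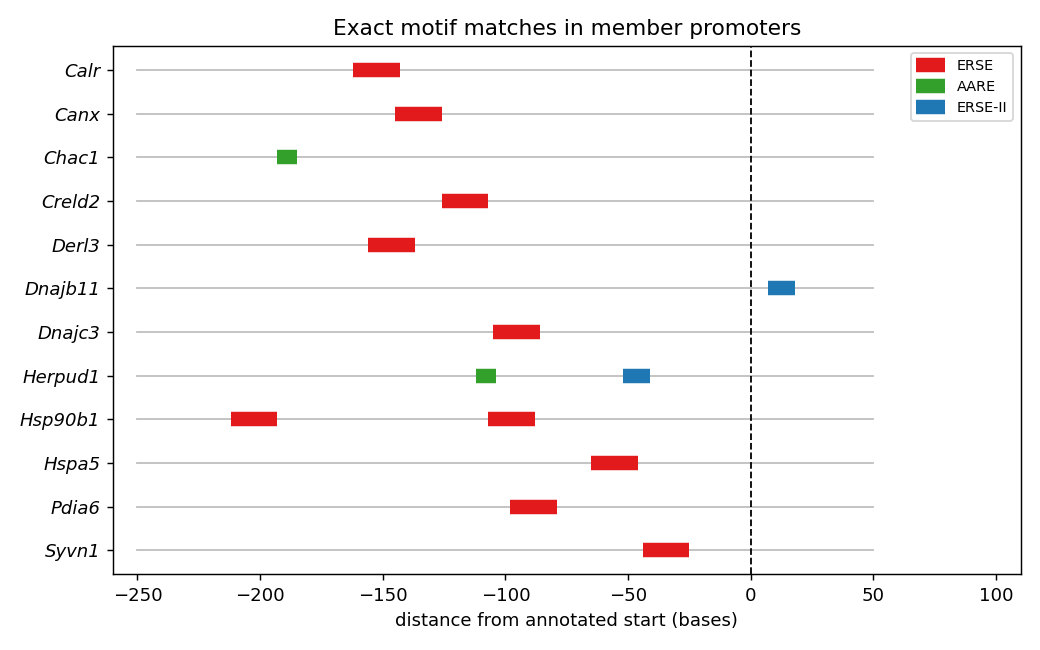
Positions of exact motif matches in member promoters, in bases from the annotated start (dashed line), with 1 grey line per promoter from 250 bases before to 50 after. ERSE matches lay upstream of the start in all 9 genes, between 44 and 212 bases, and the ERSE-II match of Dnajb11 lay 7 bases after it.

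Expression is given in units, where 1 unit is 1 read in 10000000 of the library total, counted over the gene with its introns and with no division by length. The libraries held 68823160 to 81073502 reads, of which 4320910 to 4962798 fell in rows of the table other than 13 very abundant ones. Those rows averaged over 25000 units and include the ribosomal RNA precursor, and the insulin genes, Ins1 and Ins2, were kept out of them as islet transcripts. The 36 members together took 54887, 52447, 49597 and 57733 reads in control replicates 1 and 2 and knockdown replicates 3 and 4. That was 1.19% and 1.21% of the reads outside those rows in the controls, and 1.02% and 1.16% in knockdown islets. The Wilson 95% intervals of the 4 shares, which cover counting error only, ran from 1.18 to 1.20, 1.20 to 1.22, 1.01 to 1.03 and 1.15 to 1.17 percent. The knocked-down gene, Taz, stood at 23.1 and 15.4 units in control islets and 13.8 and 12.7 units in knockdown islets, in the direction of the labels but short of the threshold (limma adjusted p = 0.529). Islet hormones were abundant in every library, with Ins2 between 46108 and 58452 units and Gcg between 5422 and 6652 units.

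The deposited scale moved the whole table. The median log2 fold change of all 13531 genes was 0.17, and it was -0.00461 after division by median-ratio size factors, which were 1.04 and 0.847 for the controls and 1.08 and 1.06 for the knockdown libraries. For this reason every log2 fold change is stated as its distance from that median, from limma on log2(value + 1), while the adjusted p belongs to the unshifted change. Values divided by the size factors are called scaled units.

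Almost no gene of the set passed the test. By limma, adjusted over all genes, 0 of 36 members rose and 1 fell, where 2.49% of all tested genes rose and 0.0443% fell. The gene that fell was Derl3, and 2 members, Derl3 and Gdf15, had an unadjusted p under 0.05. After median-ratio scaling limma called 0 members, with 15 at an unadjusted p under 0.05. The count tests on recovered reads also called 0, with 10 members at an unadjusted p under 0.05 by edgeR and 11 by DESeq2. Of all 13531 tested genes, 1400 had an unadjusted p under 0.05 by limma, 1390 after scaling, 1393 by edgeR and 729 by DESeq2. Background rates in knockdown islets were 1.12% higher and 0.155% lower after scaling, 1.29% and 0.148% by edgeR, and 0.606% and 0.0739% by DESeq2.

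As a group the members lay low among all genes. Of the 36, 35 had a log2 fold change below the median of all genes, where 50% of all tested genes do by construction, and their median was -0.22 (-0.23 after scaling). In deposited units the groups did not overlap in 1 member that was lower and 2 that were higher, against 4.49% and 34.9% of all tested genes. In scaled units 25 members lay lower in both knockdown libraries than in both controls and 1 lay higher, against 20% and 20.4% of all tested genes. Knockdown replicate 3 was the lowest of the 4 libraries in 30 of 36 members in scaled units, and in 28.3% of all tested genes. In deposited units it was the lowest in 16 members, and control replicate 2 was the lowest in 18. Without knockdown replicate 3 the median of the members was -0.13, and 28 of 36 were under the all-gene median. With scaling and without knockdown replicate 4, 6 members were called lower, namely Hsp90b1, Hyou1, Pdia6, Dnajb9, Sdf2l1 and Derl3, against 0.503% of all tested genes. That last setting was chosen after the data were seen.

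**Figure D2:**
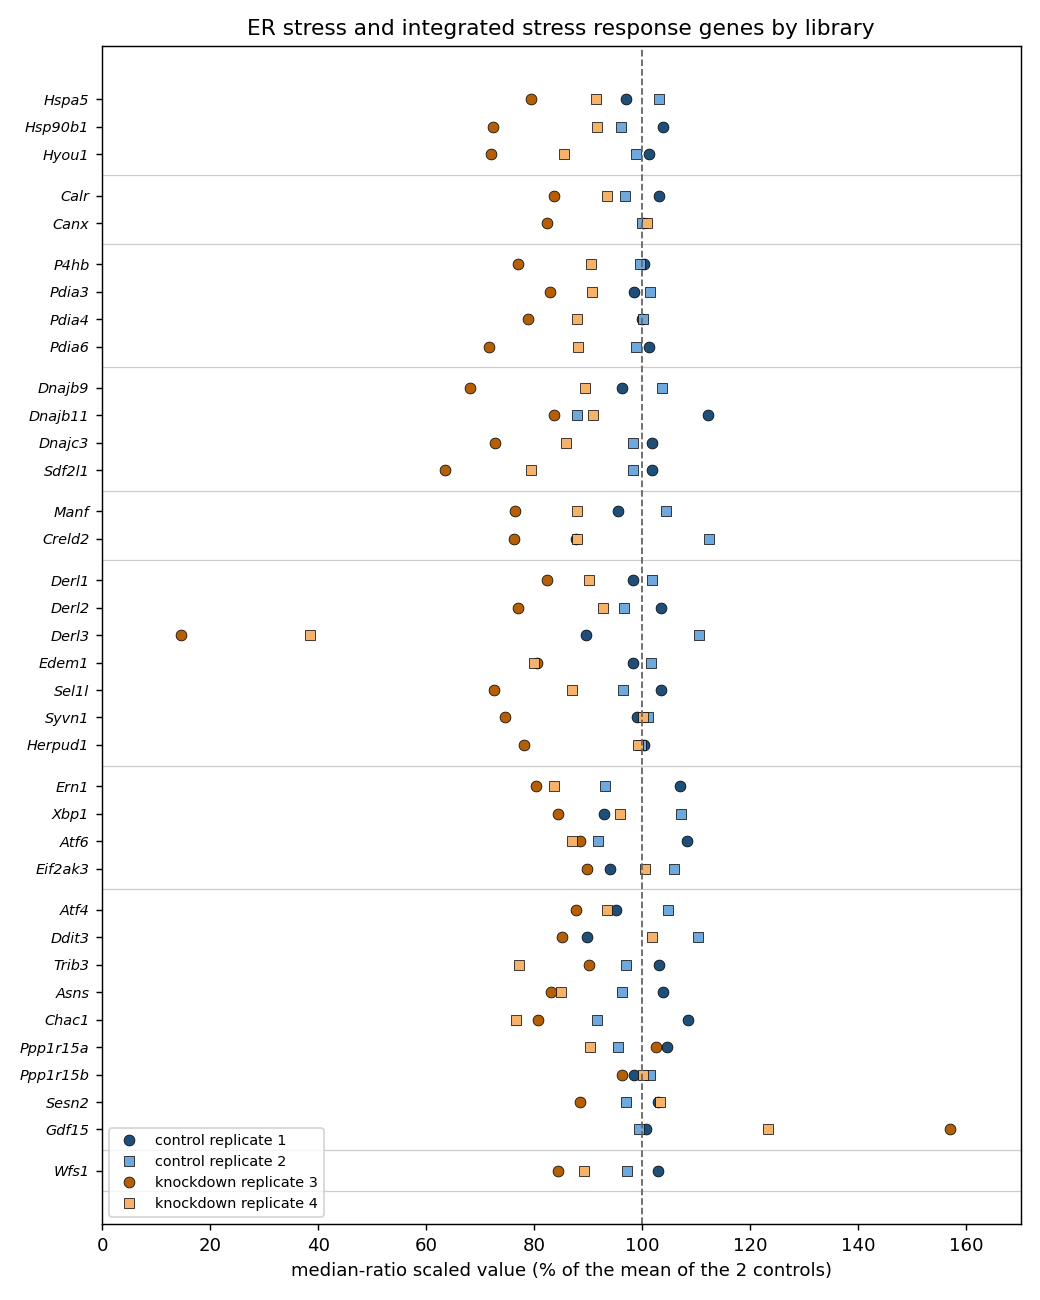
Each member in each library, as median-ratio scaled value in percent of the mean of the 2 controls (dashed line), in blocks by role. Knockdown replicate 3 (dark orange circles) lies leftmost in 30 of 36 genes, Derl3 lies far to the left in both knockdown libraries, and Gdf15 is the member to the right in both.

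**Figure D3:**
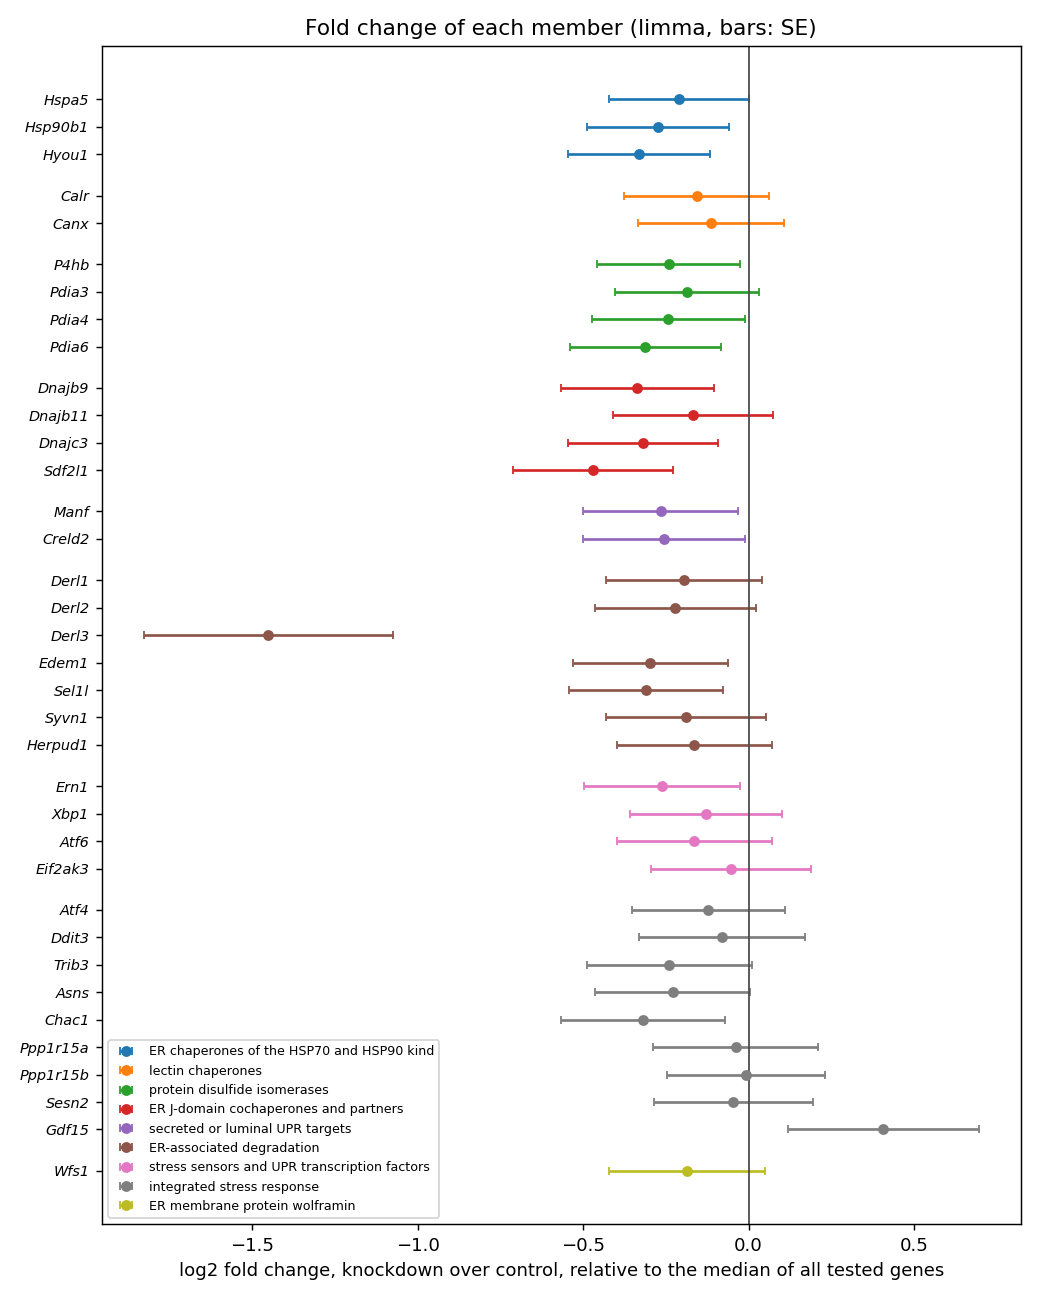
Log2 fold change of each member relative to the median of all 13531 tested genes (limma, bars are SE), coloured by role. The values run from -1.45 for Derl3 to 0.41 for Gdf15, and 35 of 36 points lie left of 0.

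Markers of several other cell types were higher in knockdown islets. Of the markers of stellate cells and fibroblasts 11 of 15 rose (median 1.19), of endothelial cells 6 of 13 (median 0.65) and of duct cells 5 of 11 (median 0.41). The summed value of the stellate list was 131 and 137 units in control islets and 413 and 318 units in knockdown islets, with knockdown replicate 3 the higher of the pair. Sparc, the most abundant of that list, stood at 53.5 and 52.3 against 126 and 105 units. After scaling the 3 lists had 9, 4 and 2 genes called higher, and no stellate or endothelial marker was at 0 in any library. Of 8 markers of other endocrine cells 0 were called, and of 10 tested macrophage markers 2 rose. Each of the 14 beta cell markers was below the all-gene median, and 0 were called (2 were called lower after scaling). Their median was -0.34, and their scaled sums were 96626 and 93428 in the controls against 78350 and 86618 in knockdown islets. Ins1 and Ins2 made up most of these sums, with Ins2 at 56310 and 54413 against 44813 and 49187 scaled units. The scaled beta cell sum was lowest in knockdown replicate 3, whereas the deposited sum was lowest in control replicate 2, at 79169 units. The part of these shifts in the members' values was not tested. In bulk islets, fewer cells of a type and less RNA per cell cannot be told apart.

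The HSP70 and HSP90 chaperones of the ER lumen were abundant and were not called. Hspa5 encodes BiP, the HSP70 chaperone that also holds the sensors inactive, and lies on mm10 chromosome 2 from 34772090 to 34776529. It stood at 889 and 772 units in control islets and 755 and 854 units in knockdown islets, so the groups overlapped. In scaled units it was 856 and 911 against 702 and 808, with both knockdown libraries below both controls (log2 fold change -0.21 ± 0.21 SE, limma adjusted p = 0.981, and 0.488 after scaling). Hyou1, the large HSP70-like nucleotide exchange factor of BiP, was 740 and 723 scaled units in control islets and 526 and 625 in knockdown islets. That is 21.3% lower in mean (log2 fold change -0.33 ± 0.22 SE, limma adjusted p = 0.897, and 0.167 after scaling). Hsp90b1, the ER form of HSP90 called GRP94, was 756 and 700 scaled units against 527 and 667, and its adjusted p was 0.337 after scaling.

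The lectin chaperones, which hold newly glycosylated proteins during folding, had the log2 fold changes nearest to 0 among the folding factors. Calr, soluble calreticulin, stood at 505 and 475 scaled units against 410 and 458. Canx, its membrane-bound relative calnexin, stood at 465 and 464 against 383 and 468, so that knockdown replicate 4 was the highest library and knockdown replicate 3 the lowest. Their log2 fold changes were -0.16 and -0.11, and neither was called.

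The set holds 4 disulfide isomerases, enzymes that form and shuffle disulfide bonds such as those of proinsulin. In scaled units all 4 had both knockdown libraries below both controls, as did 20% of all tested genes. In deposited units the groups overlapped in all 4. P4hb, the founding member, was 693 and 687 against 531 and 625 scaled units. Pdia6, a regulator of IRE1 and PERK signalling as well as an isomerase, was 253 and 247 against 179 and 220. It overlaps Atp6v1c2, and reads in shared bases cannot be told apart. Pdia3, the partner of the lectin chaperones, was 552 and 568 against 464 and 508. Pdia4, which overlaps Mir704, was 177 and 178 against 140 and 156. The 4 log2 fold changes ran from -0.31 for Pdia6 to -0.19 for Pdia3, with limma adjusted p of 0.922 and more.

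After Derl3, the member with the log2 fold change farthest from 0 was a partner of BiP's cochaperones. Sdf2l1, which forms a complex with the J-domain protein of Dnajb11, stood at 74.7 and 58.8 units in control islets and 48.3 and 59.3 units in knockdown islets, on 370 to 514 reads. In scaled units it was 71.9 and 69.4 against 44.9 and 56.1, a mean of 70.7 ± 1.78 against 50.5 ± 7.92 (SD, n = 2 each), or 28.6% lower. The difference was not called (log2 fold change -0.47 ± 0.24 SE, limma adjusted p = 0.793, 0.105 after scaling, edgeR adjusted p = 0.0943). Dnajb9, or ERdj4, which brings BiP to IRE1, was 188 and 202 against 133 and 174 scaled units. Dnajc3, or p58IPK, an ER cochaperone whose loss causes diabetes, was 277 and 267 against 198 and 234. Dnajb11 itself, or ERdj3, overlapped between the groups, at 73.6 and 57.6 against 54.9 and 59.7 scaled units, and control replicate 1 was its highest library. It overlaps Gm30505.

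Manf and Creld2 encode small luminal proteins that are induced and can be secreted in ER stress, and MANF is needed for beta cell mass in mice. Manf was 143 and 156 scaled units in control islets and 114 and 131 in knockdown islets, without overlap. Creld2 was 40.7 and 52.1 against 35.4 and 40.8, where control replicate 1 lay between the knockdown libraries. Their log2 fold changes were -0.27 and -0.26, and neither was called (limma adjusted p = 0.960 and 0.965).

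Derl3 was the lowest of the derlins in level and the only member called. Derlins are membrane proteins that help move misfolded proteins out of the ER, and the gene lies on mm10 chromosome 10 from 75893398 to 75895941 with no overlapping gene. It stood at 4.65 and 4.69 units in control islets and 0.782 and 2.04 units in knockdown islets. These values rest on 32, 38, 6 and 16 reads, and the groups did not overlap in deposited or scaled units. Controls averaged 4.67 ± 0.0262 units and knockdown libraries 1.41 ± 0.886 (SD, n = 2 each), which gives a ratio of 0.302 (log2 fold change -1.45 ± 0.38 SE, limma adjusted p = 0.0305). This call was lost after scaling (adjusted p = 0.0609), with edgeR (0.0840), with DESeq2 (0.282) and with no filter on low values (0.242). It was also lost without control replicate 1 (limma adjusted p = 0.0790), control replicate 2 (0.202) or knockdown replicate 3 (1.0).

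Markers of acinar cells, the enzyme-secreting cells around the islets, varied between libraries of the same group. Their summed value was 3695 and 7538 units in control islets and 6428 and 3029 units in knockdown islets. As a list they lay low, like the members: 21 of 22 tested markers were under the all-gene median, and their median was -0.46. Of these 22 markers 0 were called by limma, with 2 at an unadjusted p under 0.05, 9 by edgeR and 1 by DESeq2, and of the 27 listed markers 2 or 3 were at 0 in each library. The part of acinar cells in the members' values was not tested.

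The other derlins were higher in level and differed less. Derl1 was 112 and 116 against 93.5 and 103 scaled units, and Derl2 was 57.4 and 53.6 against 42.7 and 51.5 (log2 fold changes -0.20 and -0.22, neither called), and Derl2 overlaps Mis12. Edem1, a lectin that sends misfolded glycoproteins to degradation, was 132 and 136 against 108 and 107 scaled units. Its mean was 134 ± 3.21 against 108 ± 0.600 (SD, n = 2 each, log2 fold change -0.30 ± 0.23 SE, limma adjusted p = 0.938, and 0.283 after scaling). Sel1l and Syvn1 form the ubiquitin ligase complex of the ER membrane. Sel1l was 167 and 155 against 117 and 140 scaled units, whereas Syvn1, at 63.5 and 64.9 against 47.9 and 64.4, was low in knockdown replicate 3 only. Syvn1 overlaps Mir6988 and Mrpl49. Herpud1, a membrane scaffold of the same complex, was 130 and 129 against 101 and 128, where knockdown replicate 4 lay just below the controls.

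Among the sensors, Ern1, which encodes IRE1, was 131 and 114 scaled units in control islets and 98.5 and 103 in knockdown islets. Atf6 was 143 and 121 against 117 and 115. Eif2ak3, which encodes PERK, overlapped between the groups at 64.7 and 72.8 against 61.7 and 69.1 scaled units. Xbp1, the transcription factor whose messenger RNA IRE1 splices, also overlapped, at 183 and 211 against 166 and 189. Counts over the whole gene cannot show how much of Xbp1 was spliced. The 4 log2 fold changes lay between -0.26 for Ern1 and -0.05 for Eif2ak3, and none was called by limma, edgeR or DESeq2. Wfs1, which encodes wolframin, an ER membrane protein of calcium balance and ATF6 control, was 124 and 117 against 102 and 108 scaled units (log2 fold change -0.19, limma adjusted p = 0.993).

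The 9 genes of the integrated stress response had a median log2 fold change of -0.08, beside -0.24 for the other 27 members, and 0 were called. The difference between these medians was not tested. Atf4, the transcription factor at its centre, which is controlled mainly in translation, stood at 175 and 157 units in control islets and 167 and 175 in knockdown islets. Ddit3, which encodes the death-linked factor CHOP, stood at 20.1 and 20.1 against 19.7 and 23.1 units, on 138 to 182 reads. Ddit3 lies over part of Mars, a tRNA synthetase gene, and their shared reads cannot be told apart. For both genes the groups overlapped in deposited units, and in scaled units Atf4 was 168 and 185 against 155 and 165. Ppp1r15a and Ppp1r15b, the regulatory subunits that restore eIF2 activity, had the log2 fold changes nearest to 0 in the set. The stress-induced Ppp1r15a stood at 28.5 and 21.2 against 29.0 and 25.1 units (log2 fold change -0.04), and it overlaps Tulp2. Ppp1r15b was 78.4 and 80.8 against 76.6 and 79.6 scaled units, with a log2 fold change of -0.01 ± 0.24 SE. Its deposited values did not overlap, at 81.4 and 68.5 against 82.4 and 84.2 units, so that the direction depended on the scale. Sesn2, a stress-induced brake on mTORC1, was 71.8 and 67.7 against 61.7 and 72.1 scaled units.

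In scaled units 4 of the 9 genes of this role lay lower in both knockdown libraries and 1 higher, against the 20% and 20.4% of all tested genes. The 4 were Atf4, Chac1, Asns and Trib3. Chac1, which breaks down glutathione and whose promoter is shown above, was 39.5 and 33.3 against 29.3 and 27.9. Asns, asparagine synthetase, was 142 and 131 against 113 and 116. Trib3, a pseudokinase that feeds back on ATF4, was 29.1 and 27.4 against 25.5 and 21.8. The log2 fold changes of Chac1, Asns and Trib3 were -0.32, -0.23 and -0.24, with limma adjusted p of 0.928, 0.974 and 0.974, and in deposited units the groups of each overlapped.

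Gdf15 was the exception in direction. It encodes a secreted stress cytokine that rises in mitochondrial disease and is induced by ATF4 and CHOP, and it lies on mm10 chromosome 8 from 70629393 to 70632456. It stood at 5.81 and 4.69 units in control islets and 9.39 and 7.25 in knockdown islets, on 40, 38, 72 and 57 reads. Both knockdown libraries lay above both controls in deposited and scaled units. Means were 5.25 ± 0.795 against 8.32 ± 1.51 units (SD, n = 2 each), a ratio of 1.58. The difference was not called (log2 fold change 0.41 ± 0.29 SE, limma adjusted p = 0.463, 0.654 after scaling, edgeR adjusted p = 0.670).

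**Figure D4:**
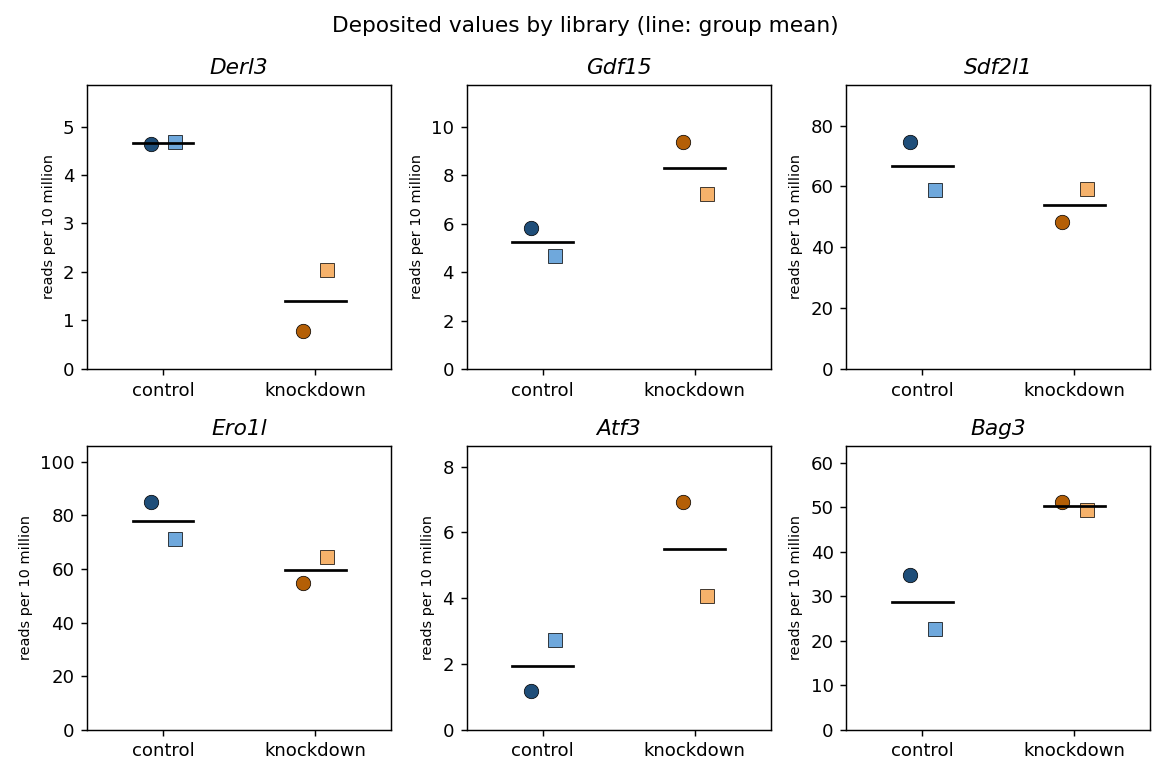
Deposited values in reads per 10000000 reads for 6 genes in the 4 libraries (points, with a line at the mean of each group). Derl3 was lower and Gdf15 higher in both knockdown libraries, Sdf2l1 overlapped between the groups, Ero1l was lower, and Atf3 and Bag3 were higher.

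Levels between genes were compared per length, as the mean of the 4 libraries in units per kilobase of annotated exon (GENCODE M21, GRCm38), although introns also add reads. P4hb came first at 221, followed by Hspa5 at 193, Pdia3 at 166, Hsp90b1 at 164 and Calr at 161. Gdf15 at 3.66 and Derl3 at 1.52 units per kilobase came last. The order depended on the length used. Per kilobase of the whole gene with its introns, Hspa5 stood at 184, Calr at 95.6, Atf4 at 71.3 and P4hb at 48.9. By that measure Derl3, at 1.19, was above Atf6, at 0.764. The 9 members with ERSE had a median log2 fold change of -0.26, beside -0.23 for the 20 matched members with neither ERSE form, and the 11 members with either form had a median of -0.21. These differences were not tested, and their direction depends on which form is counted.

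Further genes of the pathway, in lists drawn up from their known roles, were read beside the members. Outside the heat shock list, 111 of 114 listed genes found in the table were tested. Of these 1 rose and 0 fell by limma, 80 were under the all-gene median, and their median log2 fold change was -0.11. In scaled units 50 of the 111 lay lower and 11 higher without overlap, against the 20% and 20.4% of all tested genes given above. Lists on the entry, glycosylation and oxidation of proteins in the ER had medians near that of the members. The translocon and signal peptide genes had a median of -0.16, with 0 of 19 called. Srpr, the signal recognition particle receptor and their most abundant gene, stood at 306 and 255 against 260 and 289 units. Sec61g, a subunit of the translocon, had the smallest p of the list, at 6.68 and 6.54 against 3.39 and 3.31 units. These values rest on 46, 53, 26 and 26 reads (log2 fold change -0.97 ± 0.31 SE, limma adjusted p = 0.195). Of the N-glycosylation genes 0 of 12 were called (median -0.18), with Rpn2 at 341 and 268 against 268 and 314 units and Stt3b at 83.8 and 77.2 against 92.5 and 96.5.

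The oxidases of the disulfide isomerases lay lower than most members. Ero1l, the broadly expressed oxidase ERO1-alpha, stood at 84.9 and 71.0 units in control islets and 54.8 and 64.4 units in knockdown islets, without overlap. It was not called on deposited values (log2 fold change -0.55 ± 0.24 SE, limma adjusted p = 0.654). It was called lower after scaling (adjusted p = 0.0309) and by edgeR (0.0289), and not by DESeq2 (0.0988). Ero1lb, the oxidase ERO1-beta that is enriched in the pancreas, stood at 759 and 568 against 485 and 650 (log2 fold change -0.39 ± 0.22 SE, limma adjusted p = 0.849), so its groups overlapped. Of the list of 12 redox genes 0 were called by limma on deposited values, 11 were under the all-gene median, and their own was -0.19. The list of further degradation genes had a median of -0.10 with 0 of 15 called. Its most abundant gene, Sec16a, acts at ER exit sites and not in degradation itself. Sec16a stood at 210 and 154 against 172 and 176 units, and Ufd1 at 25.8 and 38.7 against 28.9 and 37.1 scaled units.

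The eIF2 kinases and eIF2 subunits were the list on the higher side, at a median log2 fold change of 0.22, and 10 of 12 genes exceeded the all-gene median, but 0 were called. Eif2s2, the beta subunit of eIF2, stood at 27.3 and 24.2 units in control islets and 39.6 and 30.0 in knockdown islets (limma adjusted p = 0.629). Eif2b1, a subunit of the exchange factor of eIF2, stood at 13.1 and 10.2 against 18.0 and 16.3 units (limma adjusted p = 0.434). In deposited units neither gene overlapped between groups, and Eif2s2 overlapped in scaled units. In deposited units 8 of the 12 genes lay higher without overlap, against 34.9% of all tested genes. In scaled units 6 of the 12 did, against 20.4%.

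Of 19 tested further ATF4 and CHOP targets 1 rose, and the median was -0.03. The gene was Atf3, a stress-induced transcription factor, at 1.16 and 2.71 against 6.91 and 4.07 units, from 8, 22, 53 and 32 reads (log2 fold change 0.99 ± 0.35 SE, limma adjusted p = 0.0427). Its call was lost after scaling (adjusted p = 0.281), with edgeR (0.327), with DESeq2 (0.926), with no filter on low values (0.355), and without control replicate 1 (0.195) or knockdown replicate 3 (1.0). Atf5, a relative of ATF4 that acts in beta cells and the most abundant of the list, stood at 284 and 220 against 209 and 250 units. It overlaps Nup62 and was not called. The enzymes of serine, one-carbon and proline synthesis, a metabolic arm of ATF4, were without exception below the all-gene median (9 of 9, median -0.23), and 0 were called. Pycr1, a proline synthesis enzyme with the smallest p, stood at 36.2 and 23.6 against 18.5 and 25.7 units (limma adjusted p = 0.638). Aldh18a1, which precedes it, stood at 110 and 88.8 against 105 and 107 units. Aminoacyl-tRNA synthetases and the tRNA exporter had a median of -0.10 with 0 of 13 called, among them Aars at 191 and 146 against 179 and 193 units and Cars at 41.3 and 35.3 against 47.7 and 53.5.

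Cytosolic heat shock genes, which respond to misfolding outside the ER, had a median of -0.13 with 1 of 11 higher. The gene was Bag3, a cochaperone that directs damaged proteins to autophagy, which rose, at 34.9 and 22.6 units against 51.1 and 49.3 (log2 fold change 0.65 ± 0.25 SE, limma adjusted p = 0.0393, 0.0368 after scaling, edgeR adjusted p = 0.0207). DESeq2 did not call it (adjusted p = 0.182), nor did limma with no filter on low values (0.308) or no mean-variance trend (0.0898), or without control replicate 2 (0.117), knockdown replicate 3 (1.0) or knockdown replicate 4 (0.560). Hsp90ab1, the cytosolic HSP90 and the most abundant of the list, stood at 724 and 605 against 756 and 729 units. Its log2 fold change was 0.00, the median of all genes, and it turned to -0.01 after scaling.

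**Figure D5:**
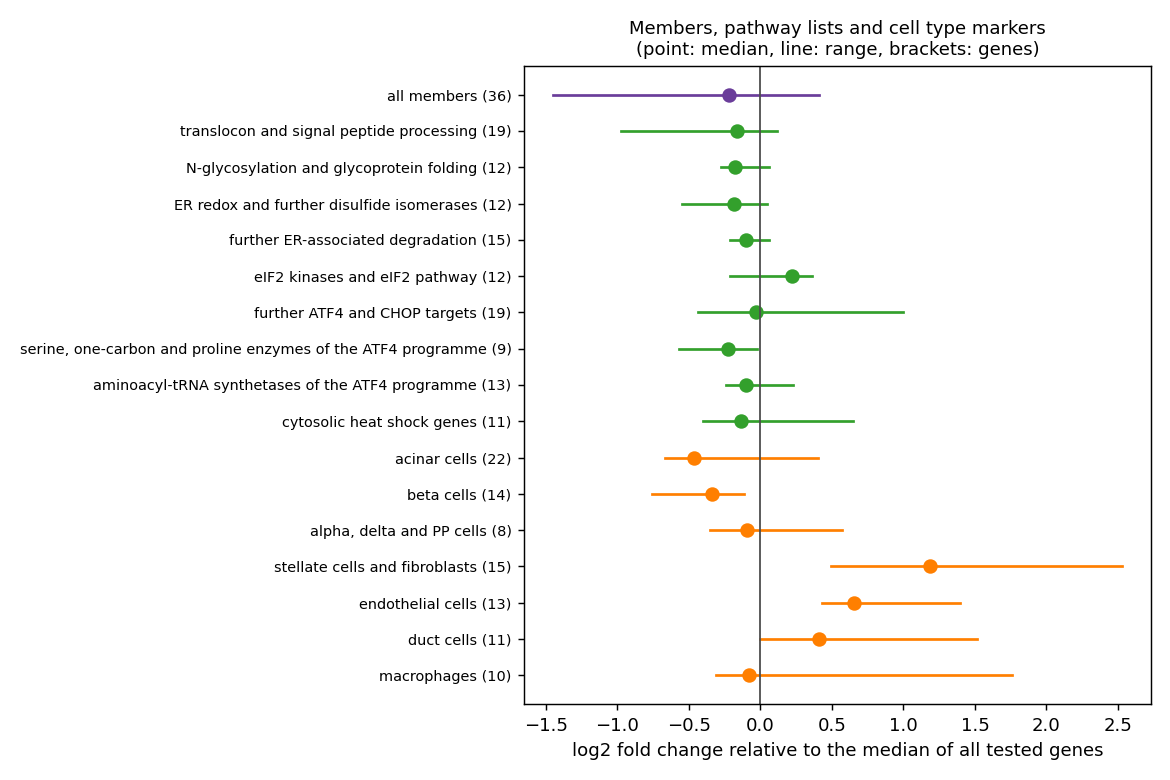
Median (point) and range from lowest to highest gene (line) of the log2 fold change relative to all tested genes, for the 36 members, 9 pathway lists and 7 lists of cell type markers. The members' median was -0.22, those of acinar and beta cell markers -0.46 and -0.34, and those of stellate, endothelial and duct markers 1.19, 0.65 and 0.41.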

How the data were processed

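Gene-body signal was taken from the authors' deposited table of 4 libraries. Its name announces FPKM, but the deposited signal is in reads per 10000000 library reads, with no length scaling. In each library 100% of values were whole multiples of the worth of 1 read within 0.01 reads, and the recovered totals were 68823160 and 81073502 (controls) and 76680282 and 78630832 (knockdown). STAR 2.5.1b, HOMER 4.9 and edgeR, with build mm10, stand in the list of tools per the submitters' processing notes, in roles not given in the sources used here. The deposited length column, in the table as other annotation, equals the genomic span for 99.2% of genes, so introns were apparently counted. Strand handling is not given in the sources used here, and 7 of the members overlap another gene.

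Genes averaging 1 unit or more and spanning 200 bases or more entered limma 3.58.1 (R 4.3.3), run on log2(value + 1) with its variance trend. Tests were two-sided, and p-values were adjusted over the whole table by Benjamini-Hochberg (threshold 0.05). The prior degrees of freedom were infinite, so each gene's spread came from the trend. Alternatives were median-ratio scaling, a pseudocount of 0.25, no filter, no trend, edgeR 4.0.16 and DESeq2 1.42.0 on recovered reads, and each library left out. The fits were tested on simulated counts. Members and lists were chosen with earlier results of these data known. Every member is named, and of each pathway list the called genes, the most abundant gene and the gene with the smallest p. Each library is a pool of mice per the labels, so any spread is between pools, with 2 pools a group. In the main fit the p-values took this spread from the trend over genes, not from a gene's own pools. Dele1 was not analysed here.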

Additional observations from a re-analysis of the deposited data

How the results depend on the processing

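The median log2 fold change of the members stayed negative in every alternative run, at -0.23 with scaling, the smaller pseudocount, edgeR and DESeq2, and from -0.30 to -0.13 with a library left out. The count of members called lower (1) was 0 after median-ratio scaling, with no filter on low values, with edgeR and with DESeq2. Of all genes, 337 were higher and 6 lower. The counts were 151 and 21 after scaling, 0 and 0 with no filter, 528 and 16 with no trend, 174 and 20 with edgeR, and 82 and 10 with DESeq2. With a library left out they ran from 0 to 1266 higher and from 0 to 68 lower. The causes were not tested. With no filter limma had 1 member at an unadjusted p under 0.05.

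Hsp90ab1, at 0.00, turned to -0.0146 after scaling, -0.0106 with the pseudocount of 0.25, -0.0132 with edgeR and -0.0131 with DESeq2, and ran from -0.0318 to 0.0097 with a library left out. Leaving out a library also changed the sign of Canx (-0.2791 to 0.0268), Dnajb11 (-0.3521 to 0.0146), Syvn1 (-0.4169 to 0.0152), Herpud1 (-0.3548 to 0.0023), Eif2ak3 (-0.1513 to 0.0218), Ddit3 (-0.2292 to 0.0559), Ppp1r15a (-0.1377 to 0.0444), Ppp1r15b (-0.0547 to 0.014), Sesn2 (-0.1742 to 0.0595), Stt3b (-0.0353 to 0.1398), Ufd1 (-0.2321 to 0.3406) and Aars (-0.102 to 0.0462). No other member changed sign under any alternative run. Where a group was left with 1 library, it was assumed to vary like the other group. Leaving out libraries after scaling was chosen after seeing the data. No paired analysis was possible because the groups share no replicate number. Derl3 and Gdf15 rest on 6 to 72 reads a library, where counting error is large.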

Other observations

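A pair of pathway genes had the same high and low libraries as the acinar sum, which was 3695 and 7538 units in control islets, then 6428 and 3029 in knockdown islets. Pdia2, a pancreatic disulfide isomerase, stood at 9.59 and 18.1 units in control islets and 20.1 and 6.61 in knockdown islets. Nupr1, a stress-induced nuclear protein described in acute pancreatitis, stood at 161 and 279 against 243 and 145 units. In both genes control replicate 2 and knockdown replicate 3 were the high libraries, as they were for the acinar sum, and the groups overlapped. Both genes were singled out after their values were seen, and the part of acinar cells in them was not tested.

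Slc7a11, the cystine transporter that ATF4 induces, stood at 16.3 and 13.6 units in control islets and 32.1 and 19.3 in knockdown islets (log2 fold change 0.54, limma adjusted p = 0.124). It was singled out after its values were seen.

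The ERSE letters were also found in 9 tested genes that are no members, among them Alg12 of N-glycan assembly. Their log2 fold changes ran from -0.86 to 0.65 with a median of 0.16, and 0 were called by limma.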
